A study of Mus musculus with 6 samples.

Results

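The 37 genes described here encode the machinery that copies DNA in S phase: the proteins that license and fire origins, the replicative polymerases with their clamp, the enzymes that supply deoxynucleotides, and the regulators that switch these genes on. The genes were listed by name for their known roles, with no threshold on their values, from 55385 mouse gene rows. All 37 passed the filter on low counts and were among the 18504 genes tested. The libraries were made from PDVC57, an established mouse squamous carcinoma line of keratinocyte origin. There were 3 libraries labelled Sox2 KO, for knockout of the stem cell transcription factor Sox2, and 3 labelled Sox2 overexpression. How either was made, and whether a group is 1 clone, is not given in the sources used here. By the series' design text, cells low and high in Sox2 were taken from grafted tumours, in order to find Sox2-driven changes in tumour stem cells through which they act on neutrophils. Unmodified PDVC57 cells were not analysed here. The labels do not say whether replicates came from separate tumours, clones or sorts, so p-values measure only the spread between these libraries.

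Replication starts when the origin recognition complex, Cdc6 and Cdt1 load the ring-shaped MCM2 to MCM7 helicase onto DNA in G1. In S phase Cdc45 and the GINS complex join this ring and turn it into the active helicase, primase and the polymerases extend new strands, and the sliding clamp Pcna holds the polymerases in place. Many of these genes are targets of E2F transcription factors, which are held back by the retinoblastoma protein until cyclin-dependent kinases release them, so their messages are commonly used to read how many cells of a tumour are cycling.

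Depth was alike in both groups, with 31611892 to 35827402 counts per knockout library and 31247976 to 38543221 per overexpression library. The counts of Sox2 itself followed the labels, at 25 to 49 per knockout library against 2566 to 4095 per overexpression library. Some other features of the libraries also moved with the groups. The summed level of 10 fibroblast markers was 55942 to 83590 CPM (counts scaled to a common library size) in the knockout libraries and 255 to 402 CPM in the overexpression libraries, and all 10 were called lower. The defining collagen genes Col1a1, Col1a2 and Col3a1 led that list, and no fibroblast marker was at 0 in every overexpression library. The 25 epithelial markers summed to 7450 to 11841 CPM with knockout and 19752 to 25591 CPM with overexpression, so markers of the labelled epithelial type were present in every library. For 12 white blood cell markers the sums of the groups overlapped. They were 23.2, 46.2 and 146 CPM in knockout replicates 1, 2 and 3 and 28.6, 21.8 and 13.9 CPM in overexpression replicates 1, 2 and 3. S100a9 was at 0 in all overexpression libraries. For 6 endothelial markers the sums were 26.9 to 114 CPM with knockout and 12.3 to 19.5 CPM with overexpression. Knockout replicate 3 had the lowest epithelial sum of its group, 7450 CPM, and the highest white blood cell and endothelial sums. It had 25107 genes with a count, against 28684 and 27946 in knockout replicates 1 and 2. Which cells the RNA of these markers came from, and its part in the results that follow, were not tested.

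Overexpression replicate 2 stood apart in a way that touches these genes. Its difference from the mean of the other overexpression libraries rose with the GC content of the transcript, with a Spearman correlation of 0.484 across 18479 genes. The same measure was -0.406 for overexpression replicate 1 and -0.242 for replicate 3, and between -0.0273 and 0.0477 for the knockout libraries. Each library was compared with the others of its group, so the values of a group are tied to each other. Genes within a library are also not independent, so these values describe the libraries only. Of the 37 replication genes, 32 lay above the mean of the other overexpression libraries in replicate 2, by a median of 0.53 on the log2 scale. The share of all tested genes above that mean was not computed. Within the 37, that difference also rose with GC content (Spearman 0.556). The median GC content was 49.28% for the 37 genes and 49.63% for the 18479 genes. The log2 fold change between groups had Spearman correlations with GC content of 0.132 over the 18479 genes and 0.175 over the 37. With transcript length these were -0.147 and 0.032. The part of GC content in the higher level of the 37 was not tested. Values of single replication genes that moved by over 1.5 times without this library are given with and without it, as are those of all called genes.

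**Figure D1:**
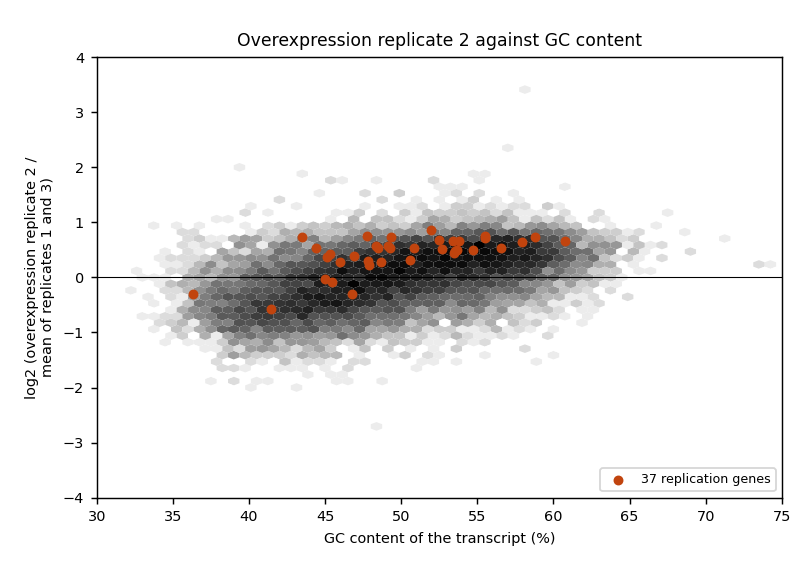
Each point is a gene; the horizontal axis is the GC content of its transcript in percent and the vertical axis the log2 ratio of its level in overexpression replicate 2 to the mean of log2 levels in overexpression replicates 1 and 3. Grey shading is the number of tested genes per cell on a log scale, and red points are the 37 replication genes, of which 32 lie above 0. The share of all tested genes above 0 was not computed.

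Of the 37 genes, 11 (29.7%) were higher with Sox2 overexpression at an adjusted p under 0.05 (edgeR quasi-likelihood test) and 0 were lower (also 0 by DESeq2, and 0 at an unadjusted p under 0.05), and the log2 fold changes of all 11 fell below 0 when libraries were scaled to epithelial markers, which moved the median of all tested genes from -0.02 to -1.28. Of all tested genes, 13.6% were called higher, 18.0% lower and 31.6% in either direction. The share of replication genes called in either direction was thus close to that of all genes, and all of its calls lay on the side of overexpression. The 11 were Cdc45, Rrm1, Cdt1, Prim2, Gins2, Rfc5, Pcna, Mcm10, Rfc4, Mcm2 and Tyms. The median log2 fold change over the 37 was 0.40, where the median over all tested genes was -0.02, and single genes ran from -0.36 (Gins3) to 1.11 (Cdc45). At an unadjusted p under 0.05 there were 17 genes. In bulk libraries, fewer cells of a type and less RNA per cell cannot be told apart.

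The groups did not overlap, with overexpression on the higher side, for 22 of the 37 genes (59.5%), where 24.4% of all tested genes did so. The reverse order was seen for 1 gene, Gins3, where 26.5% of all tested genes had it. The remaining 14 genes overlapped between groups. Among the 11 called genes, the lowest overexpression library exceeded the highest knockout library by 1.15-fold (Gins2) to 1.52-fold (Cdc45).

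**Figure D2:**
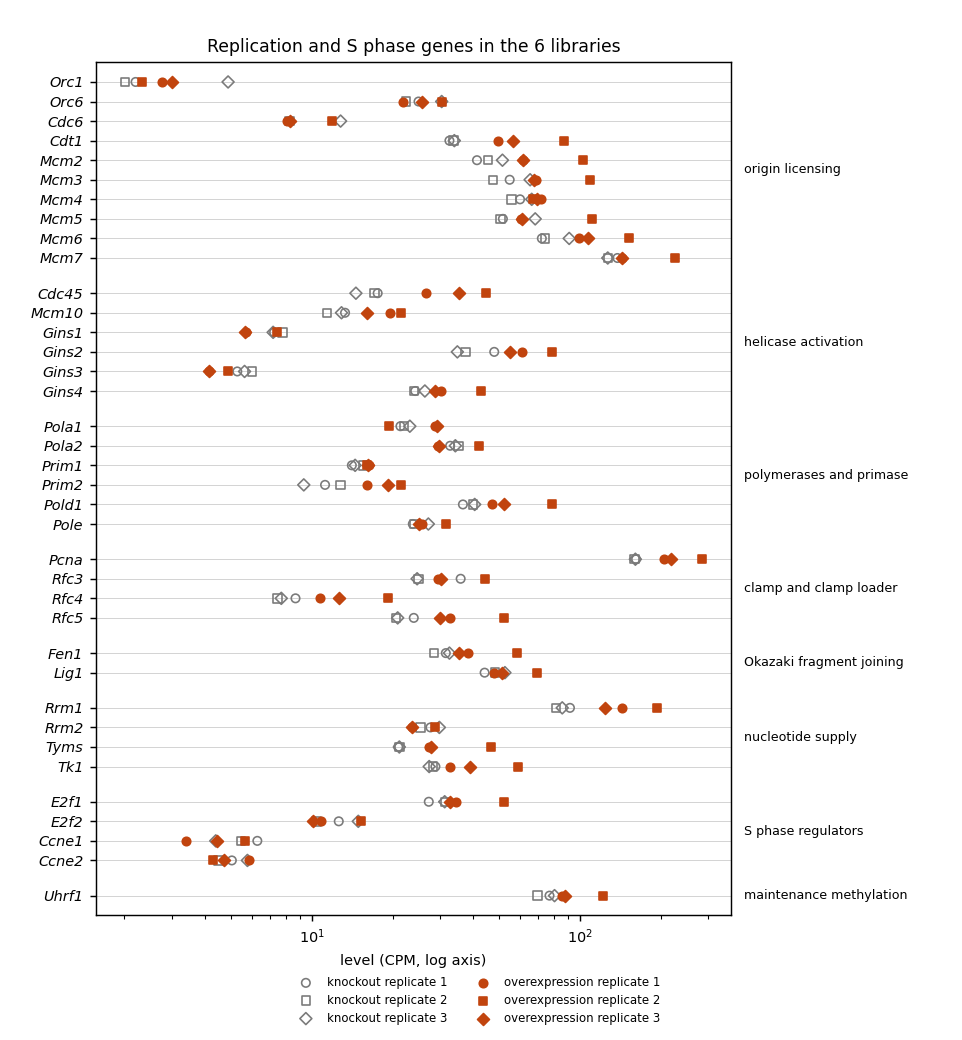
The level of each of the 37 genes in each of the 6 libraries is plotted in CPM on a log axis, with genes grouped by role; open grey symbols are knockout libraries and filled red symbols overexpression libraries, with the same symbol shape for the same replicate number. Overexpression replicate 2 (red squares) was the highest overexpression library for 32 of the 37 genes, a share not computed for all tested genes. Gins3 is the gene whose groups separate in the other direction.

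Leaving out overexpression replicate 2 gave 12 genes called higher (32.4%, with 13.2% of all genes in that fit), of which 10 were among the 11. Rfc4 was lost, while Pola1 and Pold1 were gained. The median log2 fold change over the 37 genes went from 0.40 to 0.24. Leaving out a knockout library cost more calls. The count was 6 without knockout replicate 1, 4 without knockout replicate 2 and 3 without knockout replicate 3. Calls over all genes fell as well, from 5848 to 5030, 4230 and 4527 in these fits. The count of replication genes was 13 without overexpression replicate 1 and 8 without overexpression replicate 3, with 5596 and 4782 calls over all genes. Cdc45, Cdt1 and Rrm1 were called in each of the 6 fits that left out a library.

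The sign of the change turned on the scaling. When each library was scaled to the 25 epithelial markers, 74.4% of all tested genes were called lower. In that fit 26 of the 37 replication genes were called lower and 0 higher (1.70% of all genes were called higher), with a median of -0.88. Relative to the median of all genes, the replication genes stood at 0.42 in the fit as reported and at 0.40 in the epithelial one, with 29 and 27 of the 37 above that median. Of the 11 called genes, Pcna was called lower under the epithelial scaling (edgeR, adjusted p = 0.031), and the ranges of adjusted p over the alternatives include that fit. The values of 27 genes were above 0 under the 4 other normalizations and below 0 under the epithelial one, and those of 9 genes were below 0 under all 5. Orc6 was mixed. The 4 others, namely TMM, median-ratio, upper-quartile and library totals alone, called 10 to 14 genes higher and 0 lower.

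**Figure D3:**
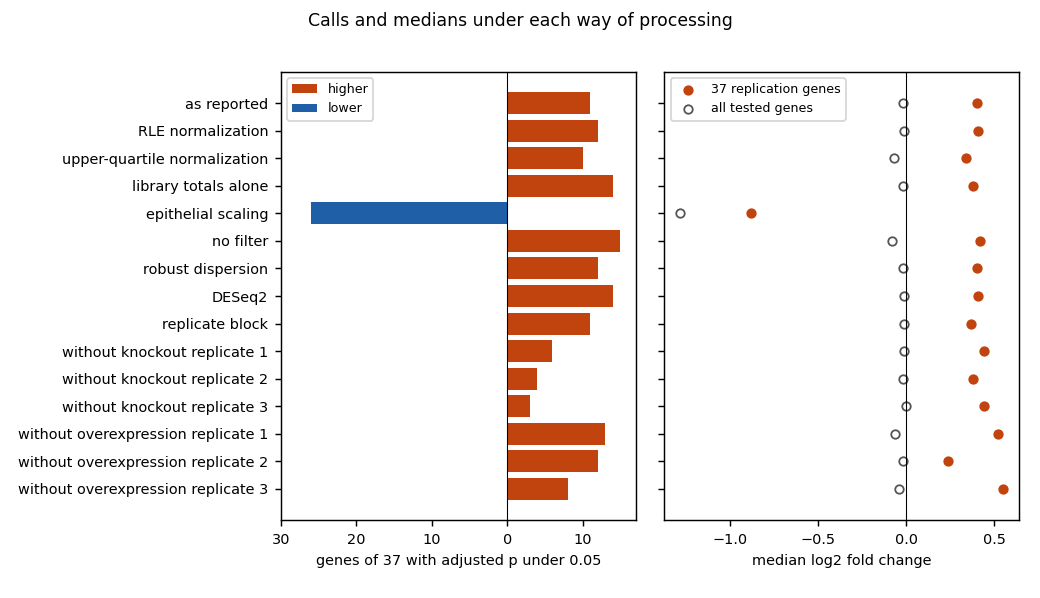
The left panel counts the replication genes called higher (red, to the right of 0) or lower (blue, to the left) under each way of processing, and the right panel gives the median log2 fold change of the 37 genes (red) and of all tested genes (open). The count runs from 3 to 15 genes higher except under the epithelial scaling, where 26 are lower and both medians move to the left.

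Of the 10 genes of origin licensing, Cdt1 and Mcm2 rose and 8 did not pass the test, with a median log2 fold change of 0.42 (0.20 without overexpression replicate 2). Cdt1, which loads the helicase and is destroyed once S phase begins, lies on chromosome 8 (122568015 to 122573554, plus strand, GRCm38). Its level was 32.6, 33.7 and 34.0 CPM in knockout replicates 1, 2 and 3 and 49.4, 87.4 and 56.1 CPM in overexpression replicates 1, 2 and 3. The knockout libraries were nearly equal, and the lowest overexpression library was well above them. The log2 fold change was 0.94 ± 0.22 (SE; edgeR, adjusted p = 0.0107), and it was 0.68 without overexpression replicate 2 (adjusted p = 0.00494, and between 0.000234 and 0.299 over the alternatives). Geminin, the inhibitor of Cdt1, was at 15.2 ± 3.50 CPM with knockout and 19.8 ± 2.07 CPM with overexpression (SD, n = 3 each) and did not pass (adjusted p = 0.187). Gmnn was looked up after the values of Cdt1 were seen.

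The MCM ring is built from 1 copy of each of its 6 subunits, and their messages were at 13.7 to 44.1 CPM per kilobase of mRNA with knockout and 19.3 to 57.8 with overexpression. Mcm2 was the subunit that passed the test. It had 41.3, 45.5 and 51.4 CPM with knockout and 61.3, 103 and 61.3 CPM with overexpression, so that replicate 2 was far above 2 equal libraries. That is a log2 fold change of 0.70 ± 0.22 (SE; edgeR, adjusted p = 0.0415). The call was lost when knockout replicate 1, 2 or 3 was left out, with adjusted p-values of 0.117, 0.114 and 0.062 (0.00556 to 0.117 over the alternatives), and the log2 fold change without overexpression replicate 2 was 0.43. The other subunits had log2 fold changes of 0.59 (Mcm6, adjusted p = 0.0502), 0.55 (Mcm3), 0.44 (Mcm5), 0.39 (Mcm7) and 0.19 (Mcm4). Without overexpression replicate 2 these were 0.40, 0.31, 0.11, 0.15 and 0.24. Mcm6 passed without overexpression replicate 1 (adjusted p = 0.0309, and between 0.017 and 0.149 over the alternatives). For Mcm4 the libraries were close together, at 55.6 to 66.1 CPM with knockout and 66.7 to 71.7 CPM with overexpression, and replicate 2 was the lowest overexpression library. Mcm7 was the most abundant subunit per length in both groups, but 26.8% of its 31-base words also occur in another gene, so its level is less certain. The groups did not overlap for 5 of the 6 subunits, Mcm5 being the exception.

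Orc1, Orc6 and Cdc6, which mark origins for loading, did not pass the test, at adjusted p-values of 0.776 and above (edgeR). Orc1, the largest subunit of the origin recognition complex, was the scarcest of the 37 genes per length. It had 2.20, 2.01 and 4.87 CPM with knockout and 2.77, 2.33 and 3.01 CPM with overexpression, and knockout replicate 3 was the highest library. Orc1, Orc6 and Cdc6 had log2 fold changes of -0.16, 0.01 and -0.06, with overlapping groups, and -0.05, -0.11 and -0.24 without overexpression replicate 2. The sign of Orc1, Orc6 and Cdc6 changed when single libraries were left out.

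Of the 6 genes of helicase activation, Cdc45, Gins2 and Mcm10 rose, and the median log2 fold change was 0.52 (0.39 without overexpression replicate 2). Cdc45, a rate-limiting part of the active helicase, lies on chromosome 16 (18780447 to 18811987, minus strand, GRCm38), and its exons overlap those of Ufd1 on the other strand. It had 17.6, 17.1 and 14.6 CPM with knockout and 26.7, 44.5 and 35.5 CPM with overexpression. All overexpression libraries stood clear of the knockout libraries, with replicate 2 highest. That is a log2 fold change of 1.11 ± 0.21 (SE; edgeR, adjusted p = 0.00401), a 2.16-fold rise, and 0.94 without overexpression replicate 2 (adjusted p = 0.00939, and between 2.08e-05 and 0.653 over the alternatives). Under the epithelial scaling its value was -0.15.

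GINS is a complex with 1 copy each of 4 subunits, and 1 of the 4 genes passed the test. Gins2 rose from 47.9, 37.4 and 34.9 CPM to 61.0, 78.4 and 54.9 CPM, a log2 fold change of 0.69 ± 0.19 (SE; edgeR, adjusted p = 0.0238). That call was lost without knockout replicate 2 (adjusted p = 0.0912) or 3 (0.0887), and the adjusted p ran from 0.0055 to 0.0933 over the alternatives. Without overexpression replicate 2 the log2 fold change was 0.55. The groups did not overlap, and replicate 2 was the highest library. The exons of Gins2 overlap those of Gse1 on the other strand. Gins4 had a log2 fold change of 0.45, and Gins1 and Gins3 had values of -0.24 and -0.36, with standard errors of 0.19, 0.22 and 0.23, none of which passed the test. Without overexpression replicate 2 these were 0.26, -0.37 and -0.42. Gins3 was at 5.27, 5.98 and 5.61 CPM with knockout and 4.14, 4.86 and 4.14 CPM with overexpression, without overlap. Gins1 and Gins3 were below 0 under all 5 scalings, and Gins2 and Gins4 above 0 under all but the epithelial one.

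Mcm10, which stabilises the active helicase, had 13.3, 11.4 and 12.9 CPM with knockout and 19.5, 21.5 and 16.1 CPM with overexpression. The groups did not overlap, and replicate 2 was only slightly above replicate 1. That is a log2 fold change of 0.60 ± 0.18 (SE; edgeR, adjusted p = 0.0336) and 0.52 without overexpression replicate 2. The call was lost without knockout replicate 1 (adjusted p = 0.065), 2 (0.127) or 3 (0.0801) or overexpression replicate 1 (0.069), and with the replicate number as a block (0.0567), and the range over the alternatives was 0.0142 to 0.127.

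The polymerase and primase genes gave 1 call among 6, with a median log2 fold change of 0.18. Without overexpression replicate 2 the median was 0.26 and 3 of the 6 were called higher. Prim2, the large primase subunit, rose from 11.2, 12.8 and 9.33 CPM to 16.1, 21.5 and 19.2 CPM. That is a log2 fold change of 0.77 ± 0.20 (SE; edgeR, adjusted p = 0.0179) and 0.69 without overexpression replicate 2. The call was lost without knockout replicate 3 (adjusted p = 0.0656) or overexpression replicate 3 (0.0531), and the range over the alternatives was 0.00305 to 0.19. Its partner Prim1, the catalytic primase subunit, was nearly level, at 14.1, 15.6 and 14.5 CPM with knockout and 16.4, 16.1 and 16.2 CPM with overexpression. Its log2 fold change was 0.14 (adjusted p = 0.521). Pola1 and Pola2 complete the primase complex, and had log2 fold changes of 0.22 and -0.01, the latter -0.18 without overexpression replicate 2. Pola1 ran against the usual order of the overexpression libraries, with 28.9, 19.4 and 29.3 CPM against 21.4, 22.1 and 23.2 CPM with knockout, so replicate 2 was below every knockout library. Without that library its log2 fold change was 0.41 and it passed the test (adjusted p = 0.0312, the lowest of the alternatives that kept its direction, which ran up to 0.695). Under the epithelial scaling Pola1 was called lower, at -1.05 (adjusted p = 0.00823). Pold1, the lagging strand polymerase, had a value of 0.60 (0.36 without overexpression replicate 2) just outside the threshold (adjusted p = 0.0541), and passed without overexpression replicate 1 (0.0252) or 2 (0.0411). Its adjusted p ran from 0.0189 to 0.139 over the alternatives. The leading strand polymerase Pole was close to level, at 0.13 and at 0.04 without overexpression replicate 2.

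Of the 4 genes of the sliding clamp and its loader, Pcna, Rfc4 and Rfc5 rose, with a median log2 fold change of 0.69 (0.48 without overexpression replicate 2). Pcna was the most abundant of the 37 genes per length, with 106 CPM per kilobase with knockout and 156 with overexpression. It had 162, 160 and 161 CPM in the knockout libraries and 206, 286 and 219 CPM in the overexpression libraries, so the knockout libraries were almost identical and all overexpression libraries higher. The log2 fold change was 0.56 ± 0.16 (SE; edgeR, adjusted p = 0.032). It was 0.42 and passed without overexpression replicate 2 (adjusted p = 0.0186) but not without knockout replicate 1 (0.0838), 2 (0.101) or 3 (0.0905) or overexpression replicate 3 (0.0544), and the range over the alternatives was 0.00969 to 0.101. Of the 31-base words of Pcna, 23.3% also occur in other genes, chiefly the copy Pcna-ps2.

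Rfc5, a clamp loader subunit, rose from 24.0, 20.6 and 20.9 CPM to 32.8, 52.1 and 30.1 CPM, a log2 fold change of 0.81 ± 0.22 (SE; edgeR, adjusted p = 0.0244). Rfc4, another subunit, rose from 8.69, 7.43 and 7.69 CPM to 10.7, 19.3 and 12.6 CPM, a log2 fold change of 0.84 ± 0.25 (SE; edgeR, adjusted p = 0.0339). In both genes replicate 2 was far above the other overexpression libraries. The values fell to 0.55 for Rfc5 (adjusted p = 0.0209) and 0.57 for Rfc4 (0.0561) without it. Rfc5 was lost without knockout replicate 2 (0.0856) or 3 (0.0708), and Rfc4 without knockout replicate 1 (0.0561), 2 (0.106) or 3 (0.081) or overexpression replicate 3 (0.0539). The ranges over the alternatives were 0.00236 to 0.198 for Rfc5 and 0.00899 to 0.281 for Rfc4. Both have exons that lie over exons of an opposite-strand gene, and 9.15% of the 31-base words of Rfc5 occur elsewhere. Rfc3 had a log2 fold change of 0.28, or 0.09 without overexpression replicate 2, and overlapping groups. For the enzymes that finish Okazaki fragments, Fen1 and Lig1, the values were 0.50 and 0.22, or 0.27 and 0.06 without that library, and neither passed (adjusted p = 0.0974 and 0.38).

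Of the 4 nucleotide supply genes, Rrm1 and Tyms rose. Ribonucleotide reductase makes deoxynucleotides from a large subunit, Rrm1, and a small subunit, Rrm2, that is limited to S phase. Rrm1 (chromosome 7, 102441695 to 102469771, plus strand, GRCm38) had 91.8, 81.6 and 85.9 CPM with knockout and 144, 194 and 124 CPM with overexpression. Every overexpression library was well above the knockout libraries, with replicate 2 highest. The log2 fold change was 0.83 ± 0.19 (SE; edgeR, adjusted p = 0.0091), and 0.65 without overexpression replicate 2 (adjusted p = 0.00835, and between 0.000466 and 0.188 over the alternatives). Rrm2 had 27.7, 25.4 and 29.9 CPM with knockout and 23.7, 28.7 and 23.6 CPM with overexpression, with overlapping groups and a log2 fold change of -0.12 (adjusted p = 0.582), or -0.20 without overexpression replicate 2. The ratio of Rrm1 to Rrm2 CPM within a library does not depend on the scaling. It was 3.32, 3.22 and 2.88 with knockout and 6.08, 6.73 and 5.25 with overexpression, and replicate 2 was not apart from the others in this ratio. The pair was chosen after its values were seen, so the ratio is a description. Of the 31-base words of Rrm2, 12% occur in other genes, and of those of Rrm1, 4.9%.

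Tyms, which makes thymidylate, rose from 21.0, 21.2 and 21.2 CPM to 27.4, 46.4 and 27.8 CPM, with replicate 2 far above the other libraries and no overlap, a log2 fold change of 0.68 ± 0.22 (SE; edgeR, adjusted p = 0.0468). This was the called gene nearest to the threshold, and it was lost without knockout replicate 1 (adjusted p = 0.104), 2 (0.119) or 3 (0.104), and with upper-quartile factors (0.0539). Over the alternatives the adjusted p ran from 0.0128 to 0.119. Its value was 0.40 without overexpression replicate 2 (0.0294). Tk1, the salvage enzyme for thymidine, had a value of 0.62 (0.36 without overexpression replicate 2) and lay just outside (adjusted p = 0.0599), and passed without overexpression replicate 1 (0.0211, and between 0.0189 and 0.143 over the alternatives). Of the 31-base words of Tyms, 9.82% also occur in other genes.

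The S phase regulators gave 0 calls among 4 genes, and 0 at an unadjusted p under 0.05 (edgeR; DESeq2 called 0 of them as well). E2f1, an activating E2F, had 27.3, 31.5 and 31.3 CPM with knockout and 34.4, 52.1 and 32.7 CPM with overexpression. The log2 fold change was 0.40 (adjusted p = 0.167), or 0.18 without overexpression replicate 2. E2f2, another activator, was at -0.07, and at -0.26 without it. The E-type cyclins, which drive entry into S phase through Cdk2, were at -0.26 (Ccne1) and -0.05 (Ccne2), with 3.38 to 6.26 CPM of Ccne1 and 4.26 to 5.85 CPM of Ccne2 over the 6 libraries. Without overexpression replicate 2 they were at -0.44 and 0.07. The groups overlapped for both cyclins and for E2f2. Uhrf1, which carries DNA methylation onto new strands, had a value of 0.38 (adjusted p = 0.13; 0.22 without overexpression replicate 2) without overlap of the groups, and 24.2% of its 31-base words occur elsewhere.

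**Figure D4:**
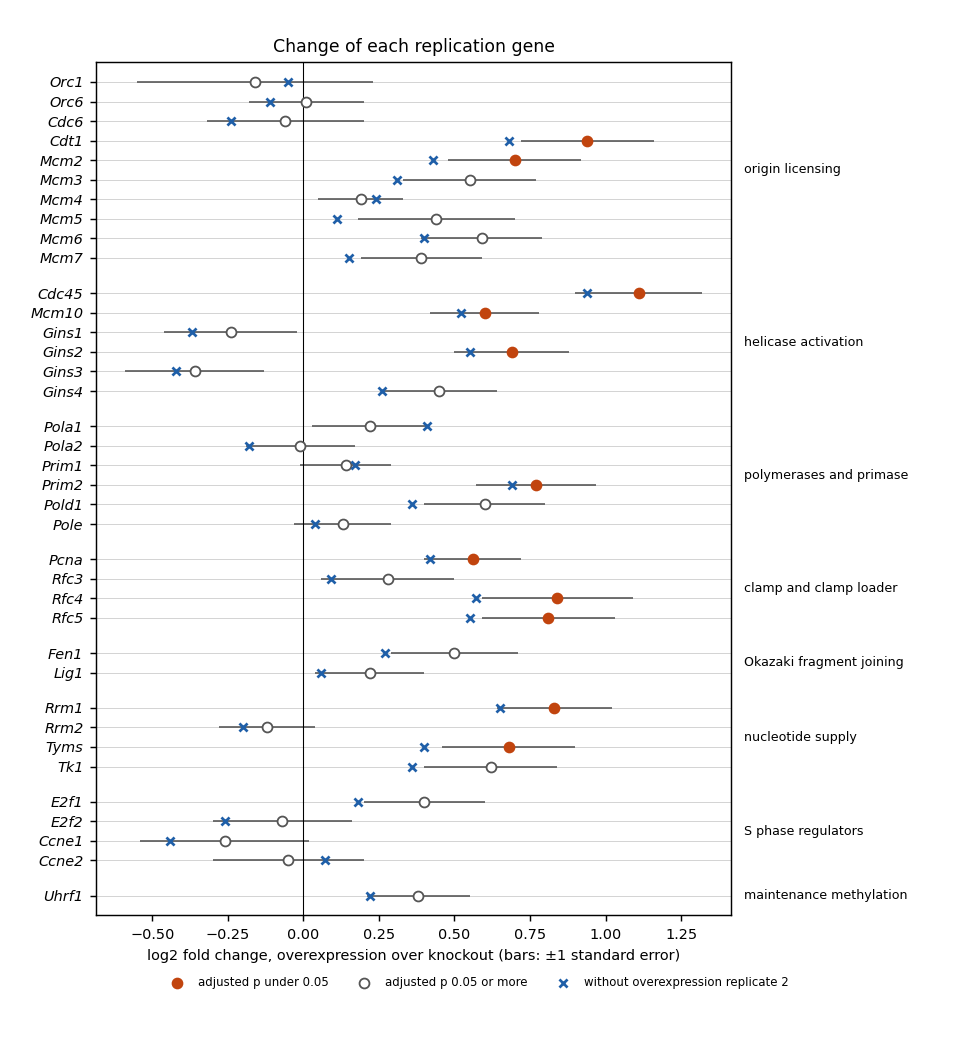
Log2 fold changes of overexpression over knockout are shown for the 37 genes by role, with bars of 1 standard error on each side; filled circles had an adjusted p under 0.05, and crosses give the value without overexpression replicate 2. The 11 filled circles run from 0.56 (Pcna) to 1.11 (Cdc45), and most crosses lie to the left of their circles.

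Compared per length, the 37 genes spanned from 1.00 CPM per kilobase (Orc1) to 106 CPM per kilobase (Pcna) with knockout and from 0.897 (Orc1) to 156 (Pcna) with overexpression. The called genes were spread over that range, from Mcm10 at 2.58 to Pcna at 106 CPM per kilobase with knockout. Counts of the 37 genes lay between 61 and 8655 in a library.

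**Figure D5:**
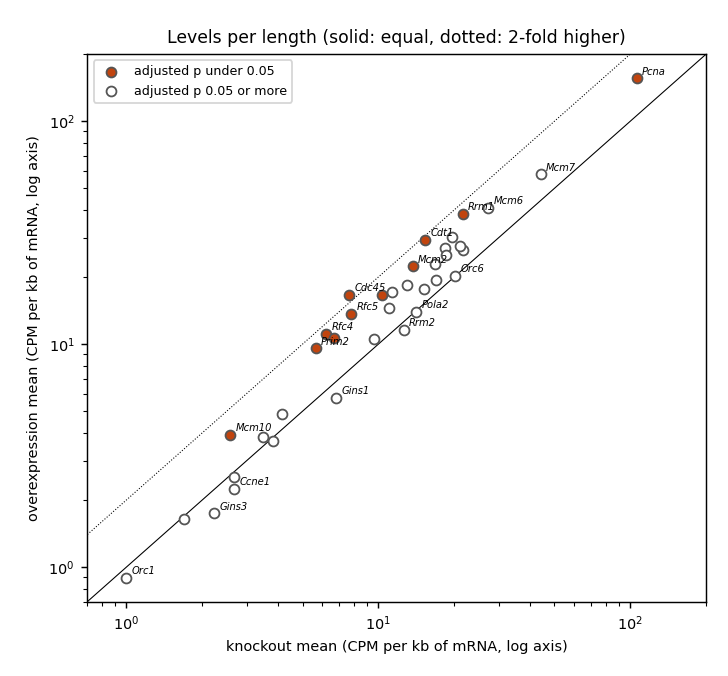
Mean levels of the 37 genes with knockout (horizontal) and overexpression (vertical) are plotted in CPM per kilobase of mRNA on log axes; the solid line marks equal levels and the dotted line a 2-fold higher level with overexpression, and some points are named. Filled points had an adjusted p under 0.05 and lie between both lines, except Cdc45, which lies just above the dotted line.

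Promoter letters were examined because E2F sites are the feature best known to be shared by replication genes, and the choice of the genes did not use them. RefSeq promoter windows (GRCm38.p6, 250 bases before to 50 after a gene's start) were matched for 30 of the 37 genes. Mcm4, Gins1, Gins2, Gins4, Prim2, Pole and Ccne2 had no match. An E2F match meant any of TTTCCCGC, TTTCGCGC, TTTGCCGC or TTTGGCGC on either strand, and a gene counted once however many matches, overlapping or not, its windows held. Of the 30 genes, 14 (46.7%) had a match, against 4.14% of the 12291 tested genes with a window and 2.26% of all 32851 windows. Among the 10 sites shown, the first along the gene for each, the capitals are the E2F letters, read 5′ to 3′ on the strand of the match with up to 8 bases of flank. They are shown because 7 of them belong to the licensing genes, of which 9 had a window, and they were chosen after values were seen.
Cdt1 (chr8:122568039-122568062, plus strand): actaccttTTTGGCGCcatggcgc
Orc1 (chr4:108579419-108579442, minus strand): agaaaactTTTCGCGCcactaacc
Cdc6 (chr11:98908005-98908028, minus strand): ccaggcgaTTTCCCGCtctccacc
Mcm3 (chr1:20820278-20820301, plus strand): tcccaagtTTTCCCGCcacggaag
Mcm5 (chr8:75109348-75109371, plus strand): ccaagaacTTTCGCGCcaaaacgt
Mcm6 (chr1:128359800-128359823, minus strand): cgtatgctTTTGGCGCgaaaagtg
Mcm7 (chr5:138172033-138172056, plus strand): acaccctgTTTCCCGCggttcgaa
Gins3 (chr8:95633510-95633533, minus strand): aaactcgcTTTCCCGCgccgcact
Pold1 (chr7:44548766-44548784, plus strand): gctTTTCCCGCcacaagat
Rfc3 (chr5:151651203-151651226, minus strand): tcgcacgcTTTCGCGCtcgcggga

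The letters were found in windows of 1 called gene. Of the 14 with a match, 1 was called higher, Cdt1, and their median log2 fold change was 0.33. Of the 16 without, 8 were called higher, with a median of 0.58. Of the 7 with no window, 2 were called. Among the 1860 tested genes called higher that had a window, 4.35% had an E2F match, close to the 4.14% of all tested genes with a window. These counts are a description, and a window without the letters says nothing about binding.

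The windows before Cdc45 and Rrm1, the called genes with the smallest p-values, are shown whole for the bases upstream of the start. Capitals mark CCAAT boxes (CCAAT on either strand) and the cell cycle homology region, here TTTGAA or TTCGAA on either strand, and neither window holds an E2F match. The Cdc45 bases are chr16:18811973-18812222 on the minus strand, with 1 CCAAT box and 1 match of the homology region. The Rrm1 bases are chr7:102441445-102441694 on the plus strand, with 2 CCAAT boxes.
Cdc45: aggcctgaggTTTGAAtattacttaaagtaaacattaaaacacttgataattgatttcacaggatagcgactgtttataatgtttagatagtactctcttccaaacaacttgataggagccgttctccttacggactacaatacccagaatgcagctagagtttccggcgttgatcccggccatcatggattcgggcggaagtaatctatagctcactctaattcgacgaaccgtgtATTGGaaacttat
Rrm1: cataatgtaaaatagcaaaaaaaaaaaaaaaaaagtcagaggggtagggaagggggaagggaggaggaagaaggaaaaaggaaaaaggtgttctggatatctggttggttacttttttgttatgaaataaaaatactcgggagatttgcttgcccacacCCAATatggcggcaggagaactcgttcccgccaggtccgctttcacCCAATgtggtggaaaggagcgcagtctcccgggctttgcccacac

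CCAAT letters were in windows of 18 of the 30 replication genes (60%) and 42.3% of tested genes with a window, and the homology region in 7 (23.3%) and 17.4%. For 16 genes of G2 and mitosis, of which 14 had a window, the same counts were 13 (92.9%) and 11 (78.6%), with 1 E2F match. Within the 30 replication genes, CCAAT letters were in 5 of 9 called genes (55.6%) and 13 of 21 not called (61.9%). The homology region was in 2 (22.2%) and 5 (23.8%) of them. Neither was found in the bases upstream of Cdt1 and Rfc5, which were also called.

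Another 72 genes of the pathway, listed by role and not by how they moved, were all tested. Of these, 8 (11.1%) were called higher and 3 lower, where 13.6% of all tested genes were called higher and 18.0% lower. Their median log2 fold change was 0.16, and the calls in either direction (15.3%) were fewer than the 31.6% of all genes. The count of higher genes lay between 2 and 13 and of lower genes between 0 and 2 when 1 library was left out. It was 2 higher without knockout replicate 2, 4 when knockout replicate 1 or 3 was left out, and 13 when overexpression replicate 1 or 2 was. Under the epithelial scaling 59 were called lower and 0 higher.

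By group, other licensing and firing factors had 0 of 13 higher and 1 lower, other fork proteins 3 of 23 higher (Pole3, Rpa2 and Rnaseh2c), chromatin assembly and methylation genes 0 of 10 in either direction, other nucleotide genes 1 of 8 higher (Dctd), and other E2F, pocket protein and kinase regulators 4 of 18 higher (Tfdp2, Rb1, Ccna2 and Wee1) and 2 lower (E2f6 and E2f8). Of these, Rpa2, Rnaseh2c, Tfdp2, Rb1, Wee1 and E2f6 were named after their values were seen. At an unadjusted p under 0.05, 2 licensing factors and 2 chromatin genes were higher. In the groups with no higher call, DESeq2 called 0 licensing factors and 1 chromatin gene higher. Cdc7, the kinase that fires licensed origins, fell from 9.72, 13.9 and 12.0 CPM to 7.83, 5.54 and 6.24 CPM, a log2 fold change of -0.86 (edgeR, adjusted p = 0.0223). It was lost when knockout replicate 2 (0.098) or 3 (0.0526) was left out, and likewise overexpression replicate 2 (0.0518) or 3 (0.0767). Its adjusted p-values over the alternatives ran from 0.000128 to 0.098. E2f8, a repressive E2F, had a log2 fold change of -0.52 (edgeR, adjusted p = 0.0392), was called in 1 of the 6 fits that left out a library, that without overexpression replicate 2 (0.029), was lost with no filter (0.0821) and with the replicate block (0.0595), and had adjusted p-values from 0.000104 to 0.154 over the alternatives.

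Among the higher genes, Pole3, an accessory subunit of the leading strand polymerase, had a log2 fold change of 0.64 (edgeR, adjusted p = 0.0179), and was lost without knockout replicate 1 (0.0528), 2 (0.0614) or 3 (0.0687). It ran from 0.00452 to 0.0687 over the alternatives, and the log2 fold change was 0.50 without overexpression replicate 2. Dctd, which makes deoxyuridylate for Tyms, rose from 8.55, 9.15 and 9.99 CPM to 16.6, 24.6 and 17.2 CPM, a log2 fold change of 1.08 ± 0.21 (SE; edgeR, adjusted p = 0.00441). Cyclin A2, the partner of Cdk2 through S phase, rose from 14.1, 15.5 and 15.5 CPM to 30.8, 35.1 and 32.3 CPM, a log2 fold change of 1.12 ± 0.15 for Ccna2 (SE; edgeR, adjusted p = 0.000618), and replicate 2 was close to the other overexpression libraries. Without overexpression replicate 2, Dctd was at 0.89 and Ccna2 at 1.09. Both were called in each of the 6 fits that left out a library, and under the epithelial scaling Dctd stood at -0.22 and Ccna2 at -0.16. Of the G2 and mitosis genes, 6 of 16 (37.5%) were higher and 0 lower, against 13.6% of all genes called higher. Their median log2 fold change was 0.43, or 0.49 without overexpression replicate 2. Under the epithelial scaling 9 of the 16 were called lower, with a median of -0.86. Cyclin B1, which drives entry into mitosis, had the smallest p-value, with a log2 fold change of 1.16 for Ccnb1 (edgeR, adjusted p = 0.00217), and 0.98 without overexpression replicate 2 and -0.09 under the epithelial scaling.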

How the data were processed

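RNA was prepared with a column kit for small samples and libraries with a low-input kit, per the labels' protocols. The authors deposited a table of unnormalized whole-number counts, genes by 6 libraries. The submitters' processing notes name kallisto 0.44.0 and mm10. The annotation, the strand setting and the step to whole gene counts are not given in the sources used here. Of 55481 rows, 96 are not mouse genes and entered no step (at most 2.23e-05% of counts). Symbols came from GENCODE M21 for 55144 IDs.

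The filter was filterByExpr (minimum count of 10, minimum total of 15), the normalization TMM, and the test edgeR 4.0.16 quasi-likelihood (R 4.3.3), with group as the only term. P-values were adjusted by Benjamini-Hochberg over 18504 genes, with a threshold of 0.05. Fold changes are overexpression over knockout, standard errors are the log2 fold change over the square root of F, and errors on means are SD. Levels per kilobase use the transcript with the longest coding part. Library deviations use log2(CPM + 0.1). The alternatives were RLE, upper-quartile, library totals, scaling to epithelial markers by their median ratio, no filter, robust dispersion, DESeq2 1.42.0, a replicate block and leaving out each library.

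The genes, the lists and the alternatives were chosen with earlier results of these data known. All 37 genes may be named, and from each other list the gene with the smallest p past the threshold in each direction. The labels give no batch. Replicate pairs differed beyond sampling noise, with a smallest chi-square per degree of freedom of 37.7. A count of 0 allows up to 3 counts, or 0.0758 to 0.101 CPM, for counting error only. Counts were simulated for 18504 genes, of which 200 were changed. The fit recovered 68 of 85 tested genes changed 4-fold and 27 of 110 changed 2-fold, with 10 false among 105 calls. The adjusted p depends on how many genes change. The data had 5848 calls, so these rates need not hold for them.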

Additional observations from a re-analysis of the deposited data

How the results depend on the processing

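A limit is the number of libraries, 3 a group. Simulated 2-fold changes were recovered for 27 of 110 genes, with 200 of 18504 genes changed. The data had 5848 calls, so that rate does not tell how many real changes were missed. In fits that left out 1 library, the count of called replication genes lay between 3 and 13 (all of them higher), other pathway genes between 2 and 13 higher and between 0 and 2 lower, all genes between 4230 and 5821, and the median of the replication genes between 0.24 and 0.55. Signs changed there for Orc1 (-0.38 to 0.37), Orc6 (-0.11 to 0.14), Cdc6 (-0.24 to 0.19), Pola2 (-0.18 to 0.10), E2f2 (-0.26 to 0.07) and Ccne2 (-0.16 to 0.07). Orc6 was -0.06 with upper-quartile factors and -0.02 with library totals alone, and Pola2 was 0.01 without the filter. Scaling to epithelial markers called 14079 genes in all, 26 of the 37 replication genes lower and 0 higher, and 59 other pathway genes lower and 0 higher, with a replication median of -0.88. Log2 fold changes above 0 in the fit as reported then became Orc6 -1.31, Cdt1 -0.35, Mcm2 -0.60, Mcm3 -0.76, Mcm4 -1.09, Mcm5 -0.88, Mcm6 -0.72, Mcm7 -0.88, Cdc45 -0.15, Mcm10 -0.66, Gins2 -0.54, Gins4 -0.84, Pola1 -1.05, Prim1 -1.12, Prim2 -0.48, Pold1 -0.69, Pole -1.15, Pcna -0.72, Rfc3 -0.96, Rfc4 -0.44, Rfc5 -0.45, Fen1 -0.78, Lig1 -1.08, Rrm1 -0.43, Tyms -0.60, Tk1 -0.66, E2f1 -0.88, Uhrf1 -0.90, Pole3 -0.62, Dctd -0.22, Ccna2 -0.16, Ccnb1 -0.09. The epithelial scaling sets the library factors from the 25 epithelial markers, whose median log2 fold change was 1.14 in the fit as reported. It thereby lowers the values of genes in general, and the median of all tested genes went from -0.02 to -1.28. Why the epithelial markers themselves differed between groups was not tested. Of the pathway genes, 1 was lower with no filter, and why the filter moved that count was not tested. With the replicate block, 11 replication genes were called, 10 of them shared with the fit without it (Mcm10 lost, Pold1 gained), with 1 pathway gene lower and 5593 genes in all. Same-numbered libraries had deviations correlated at 0.0508, 0.0223 and -0.0399, and knockout replicate 2 correlated best with overexpression replicate 3 (0.0503), so the numbers were not taken as pairs. The other alternatives, RLE, robust dispersion and DESeq2, called 12, 12 and 14 replication genes, each including the 11, while upper-quartile factors called 10 (Tyms lost), library totals alone 14 and no filter 15. RLE and robust dispersion added Mcm6, DESeq2 and library totals alone added Mcm6, Pold1 and Tk1, and no filter added these and Mcm3.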
